A study of Homo sapiens with 14 samples.

Results

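The SR proteins and the heterogeneous nuclear ribonucleoproteins (hnRNPs) are the RNA-binding proteins that steer the choice of splice sites. Their genes were followed here as a set of 38, each the row of the MM1.S and of the H929 table that carries the gene's symbol, out of 58051 genes in each table. The set held 12 SR protein genes (SRSF1 to SRSF12), the SR-like TRA2A and TRA2B, 18 hnRNP genes, the polypyrimidine tract proteins PTBP1 and PTBP3, the 3′ splice site factors U2AF2 and SF3B1, and the kinases CLK1 and CLK4. All 38 passed the filter on low values in both lines. The study lowered ZBP1, which senses nucleic acids in the Z conformation, with short hairpin RNAs (shRNAs) in MM1.S and H929, established cell lines from human multiple myeloma, and read the transcriptome. Poly(A)-selected RNA of 14 libraries was sequenced, in 7 groups of 2: MM1.S with a scramble control, with ZBP1 shRNA1 and with ZBP1 shRNA2, and H929 with a scramble control for shRNA1, shRNA1, a scramble control for shRNA2, and shRNA2. Every group, controls included, consisted of lentivirally transduced cells grown in RPMI medium with serum. Whether the 2 libraries of a group stem from separate cultures is not stated. The p-values therefore cover only how far these libraries spread, and that spread may be technical. Each hairpin group is a transduced population of 1 cell line.

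SR proteins bind exonic enhancer sequences through RNA recognition motifs and recruit U2AF and U1 through domains rich in arginine and serine, and CLK and SRPK kinases phosphorylate those domains. Many hnRNPs bind silencer sequences and oppose them, and the balance between the families sets which exons are kept. Many of these genes also limit their own level: the protein promotes inclusion of an exon with an early stop codon in its own transcript, which then decays. The deposited values count reads per gene and do not separate such transcripts from those that code for protein.

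In units of 1e6 reads in genes, the MM1.S libraries held 20.46 to 28.42 and the H929 libraries 15.93 to 22.25. ZBP1, the targeted gene, was lower with each hairpin than in its scramble group. It stood at 129 and 140.3 CPM (a gene's reads per 1e6 reads of its library) in MM1.S with scramble. There it was at 23.0 and 26.8 with shRNA1 and 15.4 and 18.0 with shRNA2. In H929, ZBP1 was at 259.8 and 268 with the scramble for shRNA1 and 109.5 and 129 with shRNA1. With the scramble for shRNA2 it was at 194 and 203, and with shRNA2 at 75.1 and 69.2. The remaining level thus differed between hairpins and lines. Of the 10 plasma cell markers, CD27 was at most at 1.18 CPM and the others at 35.2 CPM or more in every library. MAF was at least at 1440 CPM in the MM1.S scramble libraries, and FGFR3 at least at 441 CPM in those of H929. Of 12 markers of B, T, myeloid, stromal, endothelial and epithelial cells, 5 (MS4A1, CD3D, CD14, LYZ and COL1A2) stayed under 1 CPM in every library. Summed over the 12, they stood at 35.8 to 37.9 CPM in MM1.S with scramble, 38.8 to 41.1 with shRNA1 and 9.3 to 10.9 with shRNA2, and in H929 at 29.1 to 35.4 with scramble, 109 to 139 with shRNA1 and 34.7 to 45.0 with shRNA2. PECAM1 reached 86.4 CPM and COL1A1 34.8 CPM in H929 with shRNA1, and their part in the results there was not tested. The 2 H929 scramble groups differed from each other, in the members too, so the value against the other scramble group is added wherever it changes a member's call in H929.

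Proliferation genes moved with the hairpins in every comparison. Of the 20 genes of that list (MCM2 to MCM7, CDK1, MKI67 and others), all 20 fell in each of the 4 comparisons of a hairpin with its scramble group, with median log2 fold changes of -2.68 and -2.72 in MM1.S (shRNA1 and shRNA2) and -2.60 and -1.92 in H929. Their summed level was 5834 to 6259 CPM in MM1.S with scramble, 1006 to 1196 with shRNA1 and 1274 to 1362 with shRNA2. In H929 it was 1254 to 1320 with the scramble for shRNA1 and 309.6 to 358 with shRNA1, and 3023 to 3133 with the scramble for shRNA2 and 868 to 972 with shRNA2. All 20 were also higher in the scramble for shRNA2 than in the scramble for shRNA1, with a median of 1.35. The share of mitochondrial reads was 9.87% to 10.21% in MM1.S with scramble and 11.59% to 12.07% with the hairpins. In H929 it was 6.63% to 7.22% with the scramble for shRNA1 and 5.98% to 6.34% with shRNA1, and 6.84% to 7.12% with the scramble for shRNA2 and 8.72% to 8.80% with shRNA2. Their part in the splicing factor values was not tested, and in bulk RNA fewer cells of a state and less RNA per cell cannot be told apart.

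Of all reads, the members took 1.16% and 1.25% in MM1.S with scramble. With shRNA1 this share was 0.900% and 0.845%, and with shRNA2 0.995% and 0.967%. In H929 they took 0.726% and 0.725% with the scramble for shRNA1 and 0.601% and 0.640% with shRNA1, and 0.930% and 0.920% with the scramble for shRNA2 and 0.757% and 0.767% with shRNA2. The share was thus lower with each hairpin than in its own scramble group, without overlap. The shRNA2 libraries of H929 lay above the scramble libraries for shRNA1.

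Per kilobase of annotated exon, HNRNPA1, HNRNPAB and HNRNPK were among the 4 most abundant members in each of the 3 control groups. HNRNPA1, the core A-type hnRNP that binds exonic silencers, led in MM1.S with scramble at 195 CPM per kb, followed by HNRNPF at 152, HNRNPK at 145, HNRNPAB at 136 and HNRNPA2B1 at 122. HNRNPAB at 133 and HNRNPA1 at 125 led in the H929 scramble for shRNA1, and HNRNPA1 at 213 and HNRNPAB at 204 in the scramble for shRNA2. CLK4 at 3.06 to 3.84 and SRSF12, a relative of SRSF10, at 0.124 to 0.338 closed the order in all 3 control groups. Most neighbours in the order were not separated: the ranges of the 2 libraries overlapped for 28 of 37 neighbouring pairs in MM1.S, and for 21 and 19 of 37 in the H929 scramble groups for shRNA1 and shRNA2. The exon length merges the exons of all annotated transcripts and can exceed that of the mRNA, so the order depends on the annotation. HNRNPU, at 966 and 931 CPM in MM1.S with scramble, ranked 20 per kb there with an exon length of 22.51 kb. Levels were not tested between the lines, whose tables were normalized separately.

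**Figure D1:**
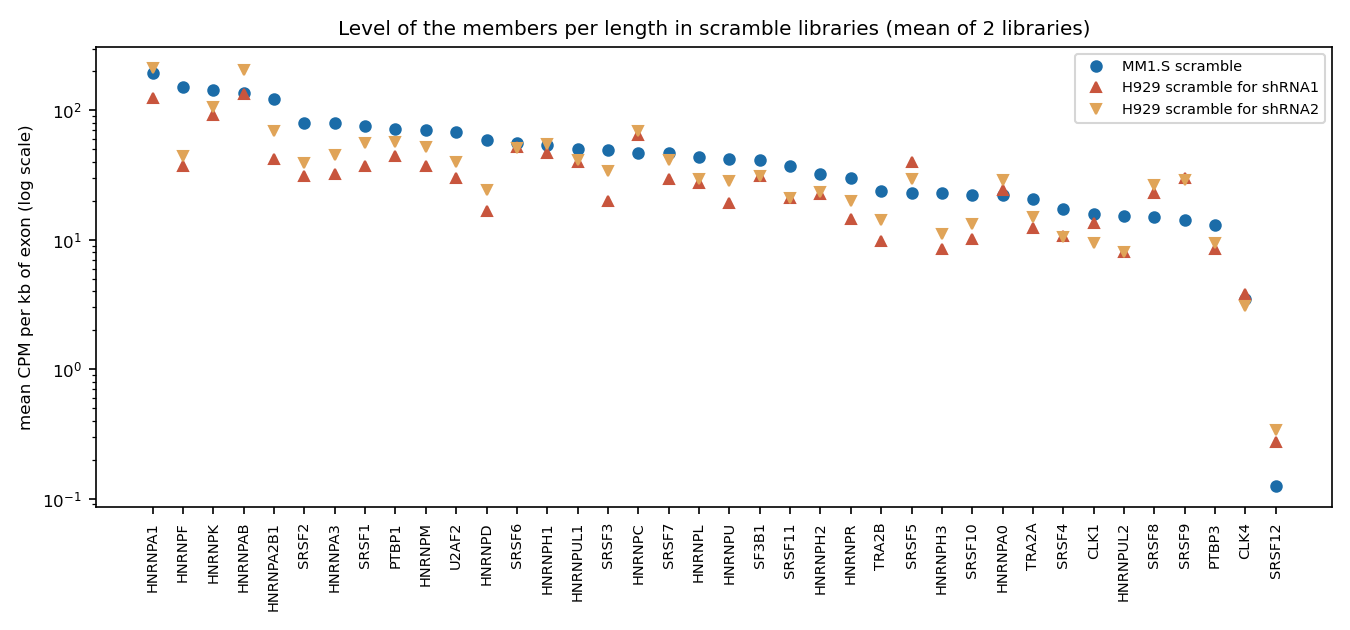
Mean level of each of the 38 members in the scramble libraries (2 libraries per point), in CPM per kb of annotated exon on a log axis, ordered by MM1.S. Circles are MM1.S, upward triangles the H929 scramble for shRNA1 and downward triangles the H929 scramble for shRNA2; HNRNPA1, HNRNPAB and HNRNPK are among the top 4 and CLK4 and SRSF12 at the bottom in all 3 groups.

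Between 19 and 27 of the 38 members fell with a hairpin against its own scramble group, and 2 to 6 rose, among them CLK1 and CLK4 with shRNA1 in MM1.S. In H929 the fall with shRNA2 depended on which scramble group it was set against. A member is said to have risen or fallen where its Benjamini-Hochberg adjusted p over all genes was under 0.05, from edgeR's quasi-likelihood test in MM1.S and from limma in H929. With shRNA1 in MM1.S, 23 of 38 members (60.5%) fell and 2 rose, against 19.7% of all genes that fell and 17.8% that rose. With shRNA2 in MM1.S, 19 (50.0%) fell and 2 rose, against 21.7% and 14.9% of all genes. In H929 shRNA1 gave 22 lower (57.9%) and 6 higher, against 27.7% and 25.7%. H929 shRNA2 gave 27 lower (71.1%) and 4 higher, against 25% and 18%. Set against the other H929 scramble group, shRNA2 gave 4 lower and 9 higher and the member median turned from -0.39 to 0.08, while shRNA1 gave 27 lower and 4 higher. The median log2 fold change of the members was -0.66 and -0.44 in MM1.S and -0.32 and -0.39 in H929 (shRNA1 and shRNA2), where the median of all genes tested was 0.00, -0.03, -0.01 and -0.02. Ratios of CPM lay 0.11 to 0.16 above the fitted log2 fold changes in median (the fits scale libraries by TMM or by size factors), and no member that passed had the other sign by CPM.

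The number of members that fell with shRNA2 in MM1.S dropped without either shRNA2 library, and fewer of all genes fell in those fits too. The member median was then -0.39 without replicate 1 of shRNA2 and -0.42 without its replicate 2, against -0.44 with all libraries. Same-numbered MM1.S libraries deviated together, and with the replicate number as a block shRNA1 gave 27 lower and 6 higher members and shRNA2 gave 28 lower and 6 higher (edgeR adjusted p under 0.05). Calls rose over all genes too in that fit, to 30.9% lower and 28.4% higher with shRNA1 and 32% and 26.8% with shRNA2.

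In all 4 comparisons, each against its own scramble group, 13 members fell: SRSF3, SRSF7, TRA2B, HNRNPA1, HNRNPA2B1, HNRNPAB, HNRNPD, HNRNPF, HNRNPM, HNRNPR, HNRNPUL1, HNRNPUL2 and PTBP1. The 2 MM1.S comparisons share their scramble libraries. How many of all genes fell in all 4, or in 3 of the 4, was not counted. In the single comparisons 19.7% and 21.7% of all genes fell in MM1.S and 27.7% and 25% in H929 (shRNA1 and shRNA2). Of the 13, SRSF3, SRSF7, HNRNPA2B1, HNRNPAB and HNRNPUL1 kept the call in every fit that left out 1 library. Against the other H929 scramble group, all 13 were lower with shRNA1 and only HNRNPUL1 was with shRNA2. There TRA2B, HNRNPA1, HNRNPA2B1 and HNRNPD were higher with shRNA2, and the other 8 lay between -0.26 and 0.20 and did not pass. In these fits without a replicate block, a further 10 members fell in 3 of the 4, and none rose in all 4. HNRNPH2 and CLK4 rose in 3, and CLK1 and SRSF5 in 2. SRSF6, SRSF11 and PTBP3 passed in none of the 4, with log2 fold changes between -0.20 and 0.23. SRSF2 was the member with calls in opposite directions. With the replicate block in MM1.S (edgeR adjusted p under 0.05), SRSF4, SRSF9, HNRNPA0, HNRNPC, HNRNPL and HNRNPU also fell in all 4. CLK4 and SRSF5 then rose in all 4. SRSF8 and HNRNPH2 then also had calls in opposite directions. More of all genes passed too in that fit.

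**Figure D2:**
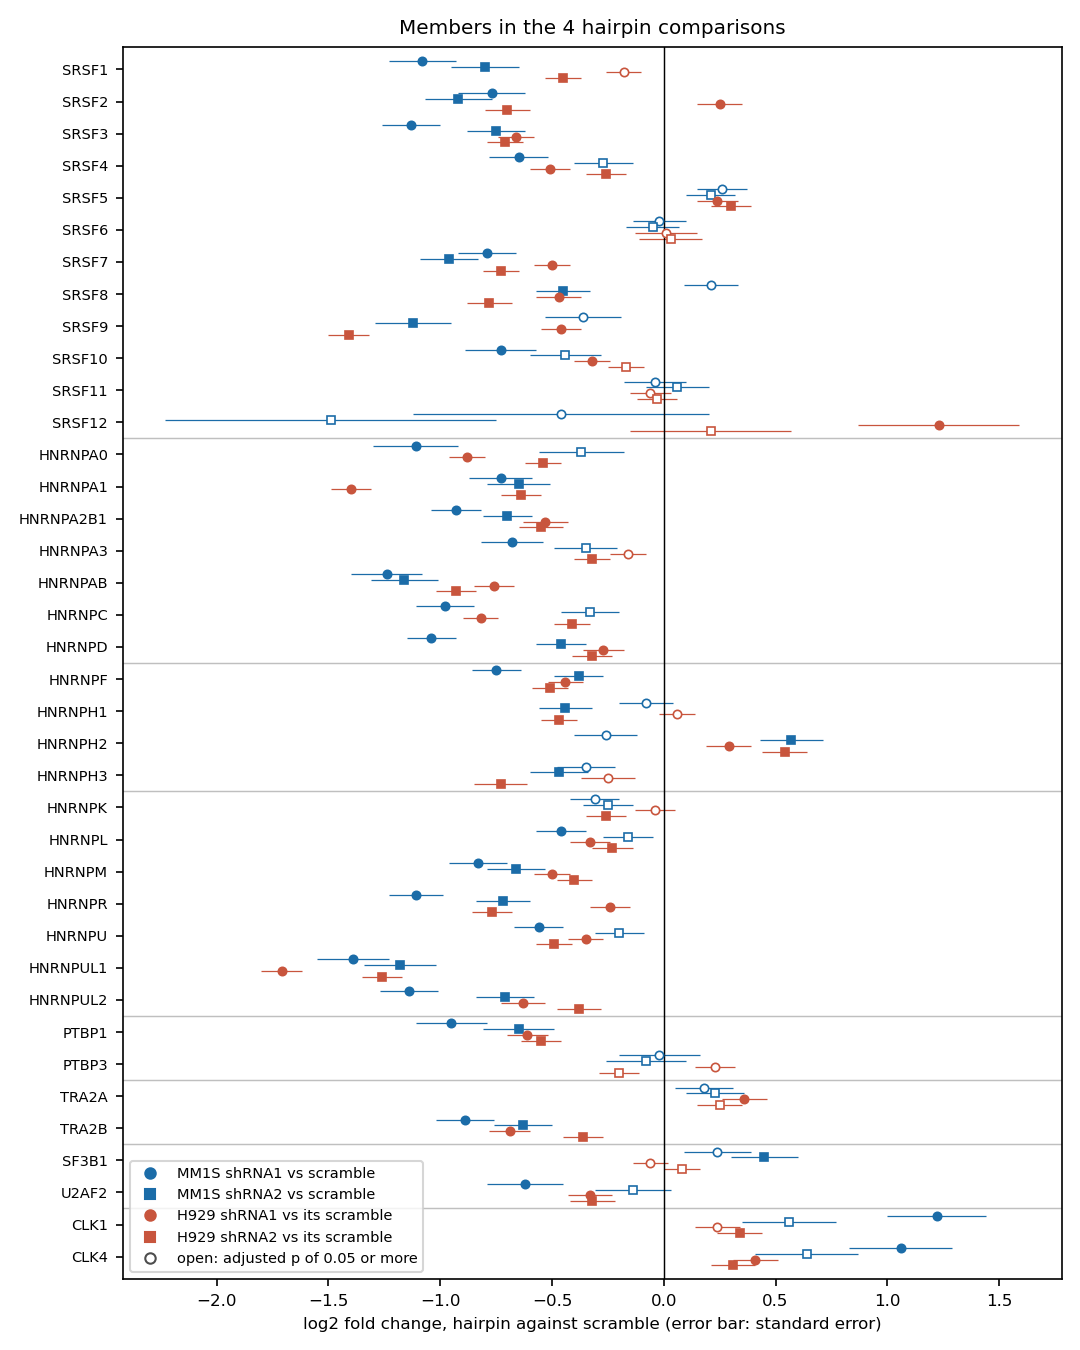
Log2 fold change of each member against the scramble group, with its standard error, in MM1.S (blue) and H929 (red) for shRNA1 (circles) and shRNA2 (squares); filled symbols passed an adjusted p of 0.05 and grey lines part the roles. Most symbols lie left of 0, those of CLK1 and CLK4 right of it, and HNRNPUL1 lies between -1.71 and -1.18 in all 4 comparisons.

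The sequence before the transcription start was read from RefSeq for the members. Windows of the 250 bases before an annotated start (RefSeq, GRCh38.p14) were found for 35 members, 51 windows in all, and are shown for SRSF3 and HNRNPAB, which fell in all 4 comparisons, and for CLK4, which rose in 3. These 3 genes have 1 annotated start each and were chosen after their values were seen. Capitals mark matches on either strand to CACGTG (the E-box), TTTCCCGC and TTTGGCGC (E2F-type), CCGGAAG (ETS-type), CCAAT, GAAANNGAA (IRF-type) and TATAAA. The windows are chr6:36594112-36594361 on the plus strand for SRSF3, chr5:178204283-178204532 on the plus strand for HNRNPAB and chr5:178627051-178627300 on the minus strand for CLK4.
SRSF3: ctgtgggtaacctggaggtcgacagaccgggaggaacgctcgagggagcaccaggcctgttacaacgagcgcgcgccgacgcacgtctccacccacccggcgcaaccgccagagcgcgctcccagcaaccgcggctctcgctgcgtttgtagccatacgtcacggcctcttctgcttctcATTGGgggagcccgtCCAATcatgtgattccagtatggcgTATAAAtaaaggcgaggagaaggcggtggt
HNRNPAB: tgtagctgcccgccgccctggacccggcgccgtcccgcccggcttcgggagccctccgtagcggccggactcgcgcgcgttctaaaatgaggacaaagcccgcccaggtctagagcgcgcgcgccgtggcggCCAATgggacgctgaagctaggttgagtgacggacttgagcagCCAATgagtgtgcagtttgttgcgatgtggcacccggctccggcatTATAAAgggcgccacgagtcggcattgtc
CLK4: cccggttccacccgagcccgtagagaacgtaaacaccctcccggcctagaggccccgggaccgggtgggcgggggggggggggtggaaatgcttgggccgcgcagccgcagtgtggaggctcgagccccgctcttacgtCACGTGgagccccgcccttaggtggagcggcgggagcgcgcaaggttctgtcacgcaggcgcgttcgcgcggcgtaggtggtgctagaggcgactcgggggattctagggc
The SRSF3 and HNRNPAB windows each held 2 CCAAT boxes, in SRSF3 with 1 of them on the opposite strand, and a TATAAA close to the start, while the CLK4 window held an E-box and none of the other motifs. CCAAT was in 39.2% of the members' windows and in 32.0% of all 35116 windows of that length. The E-box was in 15.7% against 6.34%, TTTCCCGC in 7.84% against 1.39%, and TTTGGCGC in 3.92% against 0.550%, both windows being those of SF3B1. CCGGAAG was in 9.80% against 8.52%, GAAANNGAA in 7.84% against 6.88% and TATAAA in 11.8% against 10.7%. Median GC content was 64.8% in the members' windows and 58.0% in all windows. The 4 members with TTTCCCGC were SRSF10, HNRNPUL1, PTBP1 and TRA2B, and the 7 with an E-box were HNRNPA3, HNRNPD, HNRNPH2, HNRNPH3, HNRNPM, SF3B1 and CLK4, which include genes that fell and genes that rose.

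Among the SR proteins, 6 of 12 fell with each hairpin in MM1.S and none rose. In H929 shRNA1 gave 6 lower and 3 higher, and shRNA2 gave 7 lower and 1 higher. Over all genes, 19.7% and 21.7% fell in MM1.S, and in H929 the lower and higher shares were 27.7% and 25.7% (shRNA1) and 25% and 18% (shRNA2), so the 3 of 12 that rose with shRNA1 are a share near the background. The family median was -0.56 and -0.60 in MM1.S and -0.25 and -0.35 in H929 (shRNA1 and shRNA2). SRSF3, the smallest SR protein and an adaptor for mRNA export, and SRSF7, which has the same export role, fell throughout: SRSF3 with log2 fold changes of -1.13, -0.75, -0.66 and -0.71 and SRSF7 of -0.79, -0.96, -0.50 and -0.73, in the order MM1.S shRNA1, MM1.S shRNA2, H929 shRNA1 and H929 shRNA2. The H929 shRNA2 values of SRSF3 and SRSF7 were 0.18 and -0.12 against the other scramble group, neither past the threshold. This order is kept for all series of 4 values, and gene positions below are those of GENCODE 29 on GRCh38.

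SRSF1 (chr17:58003360-58007346, minus strand), the founding SR protein and a proto-oncogene product, was at 283 and 225 CPM in MM1.S with scramble, 138 and 123 with shRNA1 and 166 and 149 with shRNA2. In H929, SRSF1 was at 125 and 123 with the scramble for shRNA1 and 116 and 129 with shRNA1, and at 190.2 and 182 with the scramble for shRNA2 and 149 and 156 with shRNA2. The groups were apart in MM1.S and for shRNA2 in H929, and overlapped for shRNA1 in H929. SRSF1 fell in MM1.S, with log2 fold changes of -1.08 ± 0.15 (SE) with shRNA1 and -0.80 ± 0.15 with shRNA2 (edgeR adjusted p = 0.00116 and 0.0048), and of -0.45 ± 0.08 with shRNA2 in H929 (limma adjusted p = 3.6e-04). Its value with shRNA1 in H929 was -0.18 ± 0.08 (limma adjusted p = 0.077). Against the other scramble group the direction with shRNA2 in H929 turned, to 0.26 (limma adjusted p = 0.019), and with shRNA1 SRSF1 was lower (-0.88, limma adjusted p = 8.9e-08).

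SRSF2 (chr17:76734115-76737374, minus strand), which favours exon inclusion and is a recurrent target of mutations in myeloid neoplasms, was at 266 and 216 CPM in MM1.S with scramble, 167 and 141 with shRNA1 and 144 and 131 with shRNA2. In H929, SRSF2 was at 86.2 and 102 with the scramble for shRNA1 and 117 and 132 with shRNA1, and at 119.8 and 115 with the scramble for shRNA2 and 79.1 and 81.3 with shRNA2. It was thus low with the hairpins in MM1.S and with shRNA2 in H929, and high with shRNA1 in H929. SRSF2 fell, with log2 fold changes of -0.77 ± 0.15 and -0.92 ± 0.15 in MM1.S (edgeR adjusted p = 0.00518 and 0.00249) and of -0.70 ± 0.10 with shRNA2 in H929 (limma adjusted p = 2.8e-05), and rose by 0.25 ± 0.10 with shRNA1 in H929 (limma adjusted p = 0.0423). The rise was lost in 6 of 8 fits that left out 1 library, namely without replicate 1 of its scramble group, without replicate 2 of shRNA1 and without any of the 4 libraries of shRNA2 and its scramble group, and against the other scramble group the value was -0.19 (limma adjusted p = 0.0959). SRSF2 overlaps MFSD11 on the opposite strand, which had 13.1% to 41.6% of the level of SRSF2.

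SRSF8 (chr11:95067197-95071224, plus strand), a relative of SRSF2, was at 59.7 and 61.2 CPM in MM1.S with scramble, 78.4 and 73.5 with shRNA1 and 45.3 and 49.5 with shRNA2. In H929, SRSF8 was at 86.3 and 101 with the scramble for shRNA1 and 70.3 and 80.4 with shRNA1, and at 110.4 and 102 with the scramble for shRNA2 and 67.1 and 70.8 with shRNA2. It was below the scramble libraries with every hairpin but shRNA1 in MM1.S. SRSF8 fell, with a log2 fold change of -0.45 ± 0.12 with shRNA2 in MM1.S (edgeR adjusted p = 0.0214), a call lost in 4 of 6 fits that left out 1 library (all but those without a shRNA1 library), and of -0.47 ± 0.10 and -0.78 ± 0.10 in H929 (limma adjusted p = 8.3e-04 and 1.2e-05). With shRNA1 in MM1.S it stood at 0.21 ± 0.12 (edgeR adjusted p = 0.201), and passed with the replicate block (0.21, edgeR adjusted p = 0.0172).

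SRSF9 (chr12:120461668-120469793, minus strand), a close relative of SRSF1, was at 45.6 and 61.6 CPM in MM1.S with scramble, 42.2 and 48.1 with shRNA1 and 25.1 and 27.8 with shRNA2. In H929, SRSF9 was at 109.8 and 115 with the scramble for shRNA1 and 89.8 and 93.1 with shRNA1, and at 109 and 107 with the scramble for shRNA2 and 46.4 and 44.2 with shRNA2. The shRNA2 libraries were the lowest of each line, shRNA1 overlapped scramble in MM1.S, and the 4 H929 scramble libraries lay close together. SRSF9 fell, with a log2 fold change of -1.12 ± 0.17 with shRNA2 in MM1.S (edgeR adjusted p = 0.00198) and of -0.46 ± 0.09 and -1.41 ± 0.09 in H929 (limma adjusted p = 3.1e-04 and 7.3e-09). The value with shRNA1 in MM1.S was -0.36 ± 0.17 (edgeR adjusted p = 0.127), which passed with the replicate block (-0.36, edgeR adjusted p = 0.00108). GATC, which overlaps SRSF9 on the opposite strand, was at 11.9 to 25.4 CPM in MM1.S and 19.4 to 36.7 in H929, and its highest library in each line was an shRNA2 library.

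Of the remaining SR proteins, SRSF4 fell in 3 comparisons (-0.65, -0.51 and -0.26, all but MM1.S shRNA2 at -0.27) and SRSF10, a splicing repressor when dephosphorylated, with shRNA1 alone (-0.73 in MM1.S and -0.32 in H929, with -0.44 and -0.17 for shRNA2). SRSF5 rose in H929 (0.24 and 0.30) and was at 0.26 and 0.21 in MM1.S. SRSF6, a larger SR protein, and SRSF11, an SR-related protein, lay between -0.06 and 0.06 in all 4. The SRSF4 call was lost in MM1.S without replicate 1 of shRNA1 and with shRNA2 in H929 without any of the 4 libraries compared. The SRSF10 call in MM1.S was lost without replicate 2 of shRNA1. The SRSF5 calls were lost with shRNA1 without replicate 1 of its scramble group or any of the 4 hairpin libraries, and with shRNA2 without replicate 2 of its scramble group or either shRNA2 library. With the replicate block SRSF5 passed in MM1.S (edgeR adjusted p = 0.0014 and 0.00629), as did SRSF4 (edgeR adjusted p = 0.00188) and SRSF10 (edgeR adjusted p = 1.5e-04) with shRNA2. Against the other scramble group the shRNA2 values in H929 were -0.17 for SRSF4 and -0.02 for SRSF5, neither past the threshold, and SRSF10 was higher (0.34, limma adjusted p = 0.004).

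SRSF12 was the member with the least reads. It was at 0.807 and 0.317 CPM in MM1.S with scramble, 0.574 and 0.293 with shRNA1 and 0.351 and 0.0803 with shRNA2. In H929, SRSF12 (chr6:89095959-89118081, minus strand) was at 1.30 and 1.20 with the scramble for shRNA1 and 5.02 and 2.26 with shRNA1, and at 1.97 and 1.10 with the scramble for shRNA2 and 1.90 and 1.93 with shRNA2. Only with shRNA1 in H929 did it lie apart from its scramble libraries, with a rise of 1.23 ± 0.36 (limma adjusted p = 0.00904) that was lost without replicate 1 of shRNA1. The fitted change with shRNA2 in MM1.S was -1.49 ± 0.74 (edgeR adjusted p = 0.149, and 0.0289 with the replicate block).

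The SR-like TRA2 proteins, which bind GAA-rich exonic enhancers, went apart. TRA2B (chr3:185915906-185938136, minus strand) was at 299 and 266 CPM in MM1.S with scramble, 177 and 154 with shRNA1 and 200.2 and 192 with shRNA2. In H929, TRA2B was at 123 and 106 with the scramble for shRNA1 and 79.1 and 79.0 with shRNA1, and at 169 and 162 with the scramble for shRNA2 and 144 and 143 with shRNA2. It was lower with each hairpin than in its scramble group, without overlap, while the shRNA2 libraries of H929 lay above the scramble libraries for shRNA1. TRA2B fell, with log2 fold changes of -0.89 ± 0.13 and -0.63 ± 0.13 in MM1.S (edgeR adjusted p = 0.00138 and 0.00651) and of -0.69 ± 0.09 and -0.36 ± 0.09 in H929 (limma adjusted p = 5.5e-06 and 0.00302). The MM1.S shRNA2 call was lost without either shRNA2 library. TRA2B was higher with shRNA2 in H929 when set against the other scramble group (0.30, limma adjusted p = 0.0127). Its relative TRA2A rose with shRNA1 in H929 (0.36 ± 0.10, limma adjusted p = 0.00602), a call lost without replicate 2 of its scramble group and without replicate 1 of shRNA1, and stood at 0.18, 0.23 and 0.25 in the other comparisons. TRA2A, against the other scramble group, was at -0.06 with shRNA1 (limma adjusted p = 0.63) and higher with shRNA2 (0.67, limma adjusted p = 8.4e-05). With the replicate block TRA2A passed in MM1.S (edgeR adjusted p = 0.0138 and 0.0034).

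**Figure D3:**
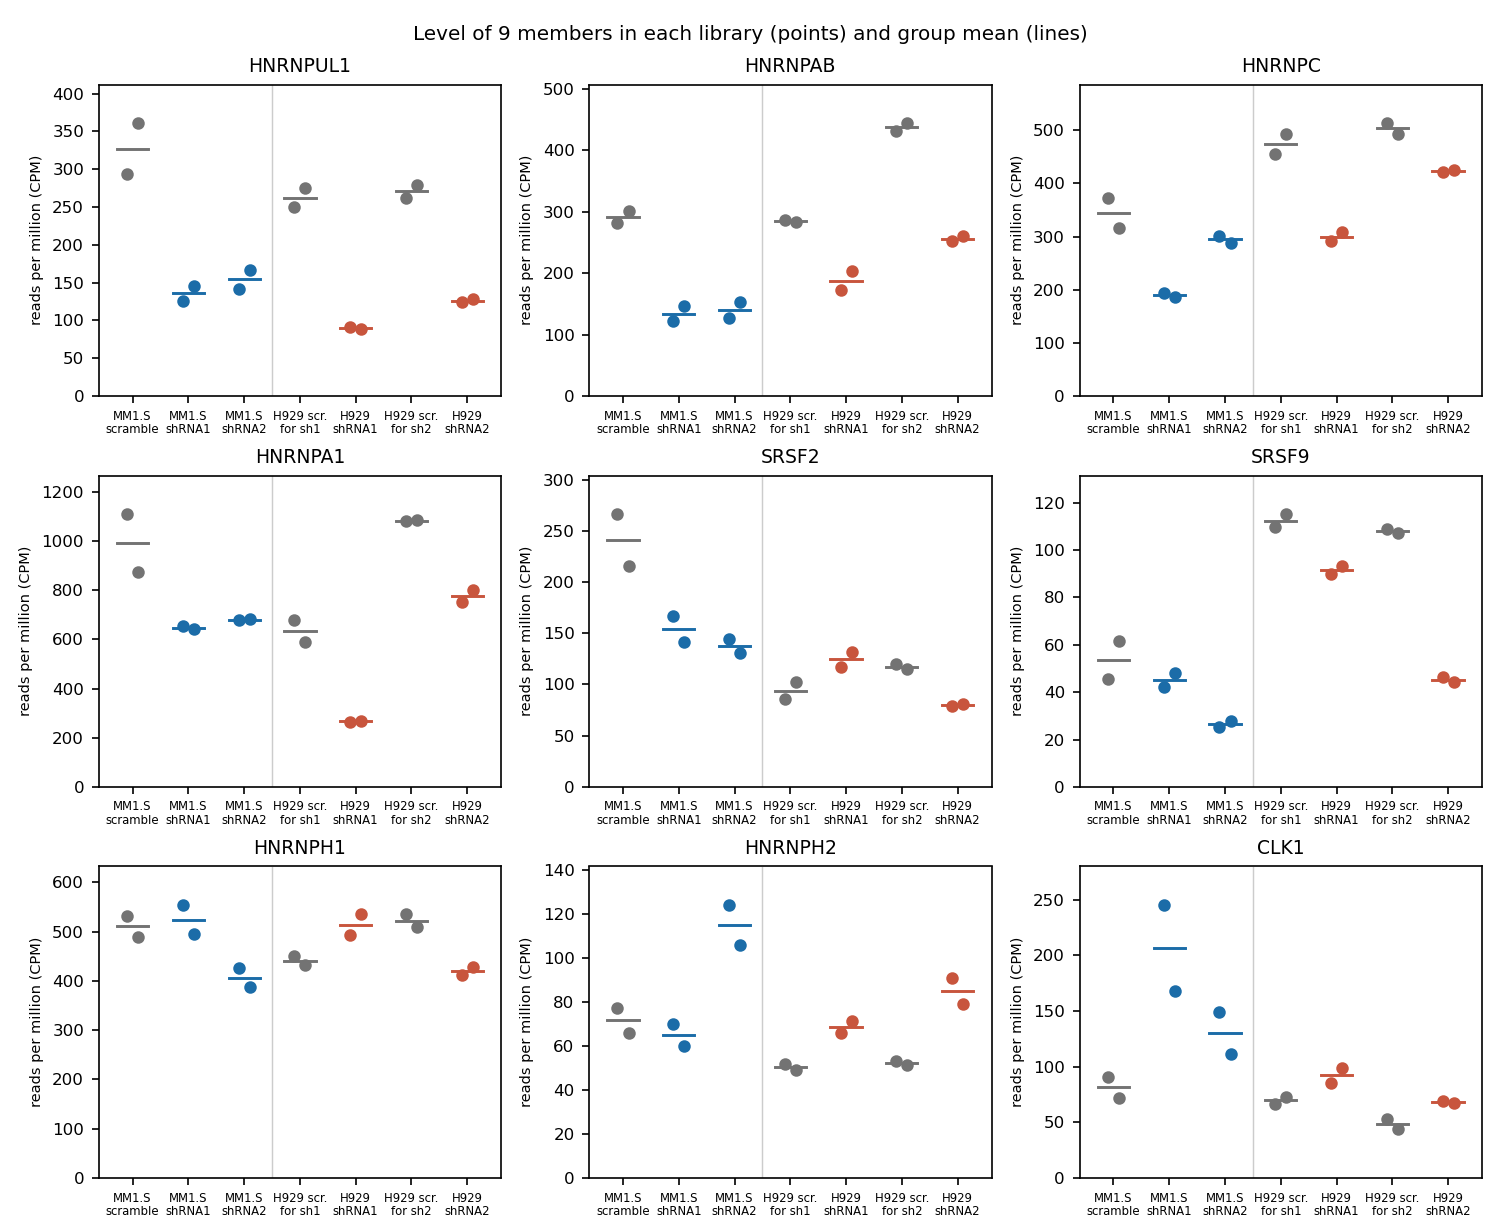
Level in CPM of 9 members in every library (points) with the mean of the 2 libraries of each group (lines), scramble groups in grey, MM1.S hairpins in blue and H929 hairpins in red; each axis starts at 0. HNRNPUL1 is lower in all hairpin libraries, HNRNPA1 and HNRNPAB differ between the 2 H929 scramble groups, SRSF9 is lowest with shRNA2, HNRNPH1 and HNRNPH2 move in opposite directions with shRNA2, and CLK1 is highest with shRNA1 in MM1.S.

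Of the 7 A/B, C and D hnRNPs, all fell with shRNA1 in MM1.S (median -0.98) and with shRNA2 in H929 (median -0.54), 6 fell with shRNA1 in H929 (median -0.76) and 4 with shRNA2 in MM1.S (median -0.46), and none rose. Over all genes, 19.7% and 21.7% fell in MM1.S and 27.7% and 25% in H929 (shRNA1 and shRNA2). Against the other H929 scramble group none of the 7 was lower with shRNA2 and 4 were higher, against 21.9% and 17.6% of all genes. HNRNPA2B1, which binds UAG-containing sequences and sorts RNAs for transport, fell, with log2 fold changes of -0.93, -0.70, -0.53 and -0.55, and was one of the 4 (0.30, limma adjusted p = 0.0253).

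HNRNPA1 (chr12:54280193-54287088, plus strand) was at 1109 and 873 CPM in MM1.S with scramble, 654 and 641 with shRNA1 and 678 and 683 with shRNA2. In H929, HNRNPA1 was at 678 and 591 with the scramble for shRNA1 and 266 and 268 with shRNA1, and at 1081 and 1087 with the scramble for shRNA2 and 751 and 802 with shRNA2. Each hairpin group lay below its scramble group, and shRNA1 in H929 gave the lowest libraries of all. It fell, with log2 fold changes of -0.73 ± 0.14 and -0.65 ± 0.14 in MM1.S (edgeR adjusted p = 0.00553 and 0.00989) and of -1.40 ± 0.09 and -0.64 ± 0.09 in H929 (limma adjusted p = 1.6e-09 and 1.9e-05). The MM1.S shRNA2 call was lost without either shRNA2 library, and against the other scramble group HNRNPA1 was higher with shRNA2 in H929 (0.26, limma adjusted p = 0.0254). HNRNPA1 has 75 processed copies in the tables, which took 1.33% to 5.40% of the reads of gene and copies together, so its counts are uncertain by how such reads were assigned.

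HNRNPAB (chr5:178204507-178211163, plus strand), which binds single-stranded nucleic acids, was at 282 and 302 CPM in MM1.S with scramble, 122 and 146 with shRNA1 and 127 and 153 with shRNA2. In H929, HNRNPAB was at 286 and 283 with the scramble for shRNA1 and 172 and 204 with shRNA1, and at 431 and 444 with the scramble for shRNA2 and 252 and 260.1 with shRNA2. Every hairpin library was below every scramble library of its line. HNRNPAB, whose promoter window is printed above, fell, with log2 fold changes of -1.24 ± 0.16 and -1.16 ± 0.15 in MM1.S (edgeR adjusted p = 7.3e-04 and 0.00105) and of -0.76 ± 0.09 and -0.93 ± 0.09 in H929 (limma adjusted p = 1.8e-06 and 4.4e-07). Against the other scramble group its shRNA2 value in H929 was -0.19 (limma adjusted p = 0.0903). PHYKPL, which overlaps it on the opposite strand, was at 50.7 to 76.6 CPM in MM1.S and 121 to 177 in H929.

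HNRNPA0 (chr5:137745651-137754376, minus strand), an A-type hnRNP that binds AU-rich mRNAs, was at 167 and 219 CPM in MM1.S with scramble, 87.3 and 107 with shRNA1 and 143 and 178 with shRNA2. In H929, HNRNPA0 was at 210.3 and 213 with the scramble for shRNA1 and 125 and 130.2 with shRNA1, and at 252 and 258 with the scramble for shRNA2 and 193 and 197 with shRNA2. The shRNA1 libraries of both lines were the lowest, and shRNA2 overlapped scramble in MM1.S. It fell, with a log2 fold change of -1.11 ± 0.19 with shRNA1 in MM1.S (edgeR adjusted p = 0.00314) and of -0.88 ± 0.08 and -0.54 ± 0.08 in H929 (limma adjusted p = 1.2e-07 and 4.7e-05). With shRNA2 in MM1.S the value was -0.37 ± 0.19 (edgeR adjusted p = 0.162, and 1.2e-04 with the replicate block). HNRNPA0 was at -0.15 with shRNA2 in H929 against the other scramble group (limma adjusted p = 0.136).

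HNRNPC (chr14:21209136-21269494, minus strand), which binds uridine tracts and keeps cryptic exons out, was at 373 and 316 CPM in MM1.S with scramble, 193 and 187 with shRNA1 and 302 and 288 with shRNA2. In H929, HNRNPC was at 456 and 493 with the scramble for shRNA1 and 291 and 308 with shRNA1, and at 513 and 494 with the scramble for shRNA2 and 421 and 425 with shRNA2. As for HNRNPA0, the shRNA1 libraries were the lowest in each line. It fell, with a log2 fold change of -0.98 ± 0.13 with shRNA1 in MM1.S (edgeR adjusted p = 8.8e-04) and of -0.82 ± 0.08 and -0.41 ± 0.08 in H929 (limma adjusted p = 4.2e-07 and 8.2e-04). The MM1.S shRNA2 value was -0.33 ± 0.13 (edgeR adjusted p = 0.0752, and 0.00221 with the replicate block), and against the other scramble group the H929 shRNA2 value was -0.20 (limma adjusted p = 0.0614). Its 9 copies took 0.519% to 2.14% of the reads.

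HNRNPD (chr4:82352498-82374503, minus strand), also known as AUF1, which directs the decay of AU-rich mRNAs, was at 419.7 and 408 CPM in MM1.S with scramble, 219 and 217 with shRNA1 and 321 and 328 with shRNA2. In H929, HNRNPD was at 119 and 115 with the scramble for shRNA1 and 101 and 116 with shRNA1, and at 160.2 and 179 with the scramble for shRNA2 and 149 and 154 with shRNA2. The drop was clear of the spread in MM1.S, and the shRNA1 libraries of H929 overlapped their scramble libraries in CPM. HNRNPD fell, with log2 fold changes of -1.04 ± 0.11 and -0.46 ± 0.11 in MM1.S (edgeR adjusted p = 3.6e-04 and 0.0143) and of -0.27 ± 0.09 and -0.32 ± 0.09 in H929 (limma adjusted p = 0.0195 and 0.00994). All but the MM1.S shRNA1 call were lost in 3 fits each that left out 1 library: in MM1.S without replicate 1 of scramble and without either shRNA2 library, and in H929 without either library of the scramble for shRNA1 and without replicate 1 of shRNA1, or without replicate 2 of the scramble for shRNA2 and without either shRNA2 library. With the other scramble group as control HNRNPD was higher with shRNA2 in H929 (0.33, limma adjusted p = 0.00873), and with both groups it was at 0.01.

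HNRNPA3, an A-type hnRNP with 16 copies that took 0.837% to 5.74% of its reads, was at 530.0 and 434 CPM in MM1.S with scramble, 343 and 312 with shRNA1 and 425 and 391 with shRNA2. In H929, HNRNPA3 (chr2:177212563-177223958, plus strand) was at 197 and 189 with the scramble for shRNA1 and 191 and 194 with shRNA1, and at 293 and 251 with the scramble for shRNA2 and 246 and 239 with shRNA2. It was lower without overlap except with shRNA1 in H929. HNRNPA3 fell, with a log2 fold change of -0.68 ± 0.14 with shRNA1 in MM1.S (edgeR adjusted p = 0.00654), a call lost without replicate 2 of shRNA1, and of -0.32 ± 0.08 with shRNA2 in H929 (limma adjusted p = 0.00592), lost without replicate 1 of that scramble group and without replicate 2 of shRNA2. It was at -0.35 and -0.16 in the other comparisons (edgeR adjusted p = 0.0816, and 0.00165 with the replicate block, and limma adjusted p = 0.117). Against the other H929 scramble group HNRNPA3 was higher with shRNA2 (0.29, limma adjusted p = 0.0115) and lower with shRNA1 (-0.77, limma adjusted p = 6.1e-07).

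Within the F/H hnRNPs, which bind runs of guanines, the paralogues HNRNPH1 and HNRNPH2 went in opposite directions with shRNA2. HNRNPH1 (chr5:179614178-179634784, minus strand) was at 532 and 489.7 CPM in MM1.S with scramble, 553 and 494 with shRNA1 and 425 and 387 with shRNA2. In H929, HNRNPH1 was at 449.9 and 432 with the scramble for shRNA1 and 492 and 536 with shRNA1, and at 535 and 509.7 with the scramble for shRNA2 and 412 and 428 with shRNA2. The shRNA2 libraries were the lowest in each line, and the shRNA1 libraries were not below their scramble libraries. HNRNPH1 fell, with a log2 fold change of -0.44 ± 0.12 with shRNA2 in MM1.S (edgeR adjusted p = 0.0229) and of -0.47 ± 0.08 in H929 (limma adjusted p = 1.7e-04), against -0.08 and 0.06 with shRNA1. The MM1.S call was lost in 5 of 6 fits that left out 1 library, all but the one without replicate 2 of scramble, and the H929 value was -0.11 (limma adjusted p = 0.297) against the scramble for shRNA1. With shRNA1 HNRNPH1 was lower against the scramble for shRNA2 (-0.30, limma adjusted p = 0.00325).

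HNRNPH2 (chrX:101408295-101414133, plus strand) was at 77.5 and 66.0 CPM in MM1.S with scramble, 69.9 and 60.0 with shRNA1 and 124 and 106 with shRNA2. In H929, HNRNPH2 was at 51.8 and 48.9 with the scramble for shRNA1 and 66.0 and 71.6 with shRNA1, and at 53.2 and 51.6 with the scramble for shRNA2 and 91.2 and 79.3 with shRNA2. The shRNA2 libraries were the highest in each line and all 4 H929 scramble libraries lay below the hairpin libraries. HNRNPH2 rose by 0.57 ± 0.14 with shRNA2 in MM1.S (edgeR adjusted p = 0.0164), a call lost without replicate 2 of scramble and without replicate 1 of shRNA2, and by 0.29 ± 0.10 and 0.54 ± 0.10 in H929 (limma adjusted p = 0.0173 and 2.9e-04). The H929 shRNA1 call was lost without replicate 2 of its scramble group and without replicate 2 of shRNA1, and against the other scramble group the value was 0.11 (limma adjusted p = 0.312). With shRNA1 in MM1.S the value was -0.26 ± 0.14 (edgeR adjusted p = 0.184, and 0.00165 with the replicate block). The read-through gene RPL36A-HNRNPH2 that spans it had at most 0.0592 CPM.

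HNRNPH3 (chr10:68331174-68343191, plus strand) was at 129 and 116 CPM in MM1.S with scramble, 111 and 96.5 with shRNA1 and 99.6 and 90.6 with shRNA2. In H929, HNRNPH3 was at 51.0 and 40.7 with the scramble for shRNA1 and 46.6 and 39.2 with shRNA1, and at 63.6 and 55.6 with the scramble for shRNA2 and 40.6 and 39.3 with shRNA2. It was below scramble with both hairpins in MM1.S and with shRNA2 in H929, while the shRNA1 libraries of H929 overlapped their scramble group. HNRNPH3 fell, with a log2 fold change of -0.47 ± 0.13 with shRNA2 in MM1.S (edgeR adjusted p = 0.0228), a call lost without replicate 1 of scramble and without either shRNA2 library, and of -0.73 ± 0.12 with shRNA2 in H929 (limma adjusted p = 1.4e-04). With shRNA1 it was at -0.35 in MM1.S (edgeR adjusted p = 0.0602, and 2.0e-04 with the replicate block) and at -0.25 in H929. With the other scramble group as control HNRNPH3 was at -0.23 with shRNA2 in H929 (limma adjusted p = 0.144) and lower with shRNA1 (-0.75, limma adjusted p = 4.2e-05). HNRNPF fell in all 4 (-0.75, -0.38, -0.44 and -0.51), but its MM1.S shRNA2 call held only without replicate 2 of scramble among the 6 fits that left out 1 library, and its H929 shRNA2 value was -0.15 (limma adjusted p = 0.154) against the other scramble group.

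Of the K, L, M, R and U hnRNPs, 6 of 7 fell with shRNA1 in each line, 4 with shRNA2 in MM1.S and all 7 with shRNA2 in H929, and none rose. The shares of all genes that fell were 19.7% and 27.7% with shRNA1 (MM1.S and H929) and 21.7% and 25% with shRNA2. Of the 7, only HNRNPUL1 was lower with shRNA2 in H929 against the other scramble group, where 21.9% of all genes were lower. The U-like HNRNPUL1 had the most negative fold change of all members with shRNA1 in both lines. HNRNPUL1 (chr19:41262496-41307598, plus strand), a nuclear relative of the scaffold protein HNRNPU that takes part in transcription and DNA end repair, was at 294 and 360.5 CPM in MM1.S with scramble, 125 and 146 with shRNA1 and 142 and 167 with shRNA2. In H929, HNRNPUL1 was at 249.9 and 275 with the scramble for shRNA1 and 90.6 and 88.0 with shRNA1, and at 262 and 279 with the scramble for shRNA2 and 124 and 128 with shRNA2. Every hairpin library was far below every scramble library of its line, and the 4 H929 scramble libraries lay close together. It fell, with log2 fold changes of -1.39 ± 0.16 and -1.18 ± 0.16 in MM1.S (edgeR adjusted p = 5.5e-04 and 0.00116) and of -1.71 ± 0.09 and -1.26 ± 0.09 in H929 (limma adjusted p = 2.8e-10 and 2.6e-08). Against the other scramble group the H929 values were -1.88 and -1.09, both past the threshold.

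TGFB1, a cytokine gene, overlaps HNRNPUL1 on the opposite strand, and without a stated strand the reads of the pair cannot be told apart where they overlap. TGFB1 was at 25.5 and 39.2 CPM in MM1.S with scramble, 44.4 and 69.8 with shRNA1 and 7.98 and 14.1 with shRNA2. It was thus high with shRNA1 in MM1.S, where HNRNPUL1 was low, and low with shRNA2 there, where HNRNPUL1 was low too. In H929, TGFB1 was at 398 and 452 with the scramble for shRNA1 and 310 and 342 with shRNA1, and at 398 and 426 with the scramble for shRNA2 and 125 and 127 with shRNA2. With both H929 hairpins TGFB1 was thus below its scramble libraries, as HNRNPUL1 was. In H929 the level of TGFB1 was 98.9% to 388% of that of HNRNPUL1, against 5.6% to 47.8% in MM1.S. The part of shared reads in the fall of HNRNPUL1 was not tested.

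HNRNPR (chr1:23303771-23344336, minus strand), which is close in sequence to SYNCRIP, was at 274 and 245 CPM in MM1.S with scramble, 134 and 127 with shRNA1 and 177 and 163 with shRNA2. In H929, HNRNPR was at 117 and 132 with the scramble for shRNA1 and 111 and 124 with shRNA1, and at 177 and 167 with the scramble for shRNA2 and 117 and 109 with shRNA2. The groups overlapped with shRNA1 in H929 and were apart in the other comparisons. It fell, with log2 fold changes of -1.11 ± 0.12 and -0.72 ± 0.12 in MM1.S (edgeR adjusted p = 3.9e-04 and 0.0029) and of -0.24 ± 0.09 and -0.77 ± 0.09 in H929 (limma adjusted p = 0.0387 and 8.2e-06). The H929 shRNA1 call was lost in 4 of 8 fits that left out 1 library: without replicate 2 of its scramble group, without replicate 1 of shRNA1 and without either shRNA2 library. The H929 shRNA2 value was -0.18 against the other scramble group (limma adjusted p = 0.143).

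HNRNPUL2 (chr11:62712630-62727472, minus strand) was at 88.0 and 76.5 CPM in MM1.S with scramble, 42.5 and 38.6 with shRNA1 and 54.9 and 53.1 with shRNA2. In H929, HNRNPUL2 was at 42.6 and 44.4 with the scramble for shRNA1 and 31.1 and 31.5 with shRNA1, and at 44.8 and 42.3 with the scramble for shRNA2 and 39.3 and 35.6 with shRNA2. Each hairpin group lay below all scramble libraries of its line. HNRNPUL2 fell, with log2 fold changes of -1.14 ± 0.13 and -0.71 ± 0.13 in MM1.S (edgeR adjusted p = 4.9e-04 and 0.00406) and of -0.63 ± 0.10 and -0.38 ± 0.10 in H929 (limma adjusted p = 6.0e-05 and 0.00646), the last lost without replicate 2 of shRNA2 and at -0.26 (limma adjusted p = 0.0528) against the other scramble group. The read-through gene HNRNPUL2-BSCL2 had 0.327 to 1.27 CPM.

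HNRNPM, which binds GU-rich sequences, fell in all 4 (-0.83, -0.66, -0.50 and -0.40). HNRNPL, which binds CA repeats, fell in 3 (-0.46, -0.33 and -0.23, with -0.16 for MM1.S shRNA2), as did HNRNPU, a nuclear matrix scaffold (-0.56, -0.35 and -0.49, with -0.20). HNRNPK, which binds cytosine-rich sequences, fell only with shRNA2 in H929 (-0.26, with -0.31, -0.25 and -0.04 elsewhere), a call lost in 4 of 8 fits that left out 1 library: those without a library of its scramble group and those without a shRNA2 library. The HNRNPM call with shRNA2 in MM1.S was lost without replicate 1 of shRNA2, the HNRNPL call with shRNA1 in MM1.S without either shRNA1 library and with shRNA2 in H929 without replicate 2 of scramble or either shRNA2 library, and the HNRNPU call with shRNA1 in MM1.S without replicate 2 of shRNA1. With the replicate block HNRNPK passed with shRNA1 and shRNA2 in MM1.S (edgeR adjusted p = 0.00117 and 0.00476), and HNRNPL and HNRNPU with shRNA2 (edgeR adjusted p = 0.0303 and 0.0125). The H929 shRNA2 values of HNRNPM, HNRNPL, HNRNPU and HNRNPK were 0.20, -0.01, 0.18 and 0.07 against the other scramble group, none past the threshold, and HNRNPK was lower with shRNA1 (-0.37, limma adjusted p = 0.00142).

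PTBP1, which binds pyrimidine tracts and represses exons, fell in all 4 (-0.95, -0.65, -0.61 and -0.55), while its haematopoietic relative PTBP3 passed in none (-0.02, -0.08, 0.23 and -0.20). U2AF2, which binds the pyrimidine tract next to the 3′ splice site, fell in 3 (-0.62, -0.33 and -0.32, with -0.14 for MM1.S shRNA2). The PTBP1 call with shRNA2 in MM1.S was lost without replicate 1 of shRNA2. The U2AF2 calls were lost in MM1.S without replicate 1 of shRNA1 or replicate 2 of scramble, with shRNA1 in H929 without replicate 1 of scramble, and with shRNA2 in H929 without replicate 2 of scramble or of shRNA2. Against the other scramble group the H929 shRNA2 values of PTBP1 and U2AF2 were -0.07 and 0.20, neither past the threshold. SF3B1, the branch site factor, rose with shRNA2 in MM1.S (0.45 ± 0.15, edgeR adjusted p = 0.0461), a call lost without replicate 2 of scramble and without either shRNA2 library, and was at 0.24, -0.06 and 0.08 in the other comparisons. With the replicate block SF3B1 also passed with shRNA1 in MM1.S (edgeR adjusted p = 0.0061).

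The kinases CLK1 and CLK4, which phosphorylate SR proteins in the nucleus, were the members whose fold changes were positive throughout together with SRSF5 and TRA2A. CLK1 (chr2:200853009-200864744, minus strand) was at 91.1 and 72.1 CPM in MM1.S with scramble, 245 and 168 with shRNA1 and 149 and 111 with shRNA2. In H929, CLK1 was at 66.9 and 73.0 with the scramble for shRNA1 and 85.5 and 98.7 with shRNA1, and at 52.7 and 44.2 with the scramble for shRNA2 and 68.9 and 67.6 with shRNA2. It was higher with each hairpin than in its own scramble group, without overlap, but the shRNA2 libraries of H929 were within the range of the scramble for shRNA1. CLK1 rose by 1.22 ± 0.22 with shRNA1 in MM1.S (edgeR adjusted p = 0.00363) and by 0.34 ± 0.10 with shRNA2 in H929 (limma adjusted p = 0.0124), the latter lost without replicate 2 of its scramble group and without either shRNA2 library. It was at 0.56 ± 0.21 with shRNA2 in MM1.S (edgeR adjusted p = 0.0729, and 1.1e-05 with the replicate block) and at 0.24 ± 0.10 with shRNA1 in H929 (limma adjusted p = 0.0601). With the other scramble group as control CLK1 was at -0.07 with shRNA2 in H929 (limma adjusted p = 0.606) and higher with shRNA1 (0.65, limma adjusted p = 3.3e-05).

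CLK4 (chr5:178602664-178630615, minus strand), whose promoter window is printed above, was at 31.7 and 23.5 CPM in MM1.S with scramble, 72.4 and 52.7 with shRNA1 and 55.4 and 37.8 with shRNA2. In H929, CLK4 was at 30.9 and 30.1 with the scramble for shRNA1 and 44.0 and 46.1 with shRNA1, and at 25.5 and 23.0 with the scramble for shRNA2 and 33.1 and 33.8 with shRNA2. Every hairpin library was above every scramble library of its line. CLK4 rose by 1.06 ± 0.23 with shRNA1 in MM1.S (edgeR adjusted p = 0.00949) and by 0.41 ± 0.10 and 0.31 ± 0.10 in H929 (limma adjusted p = 0.00255 and 0.0192), the last lost without replicate 2 of its scramble group and without either shRNA2 library and at 0.10 (limma adjusted p = 0.473) against the other scramble group. With shRNA2 in MM1.S it was at 0.64 ± 0.23 (edgeR adjusted p = 0.0625, and 6.2e-06 with the replicate block).

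The 2 H929 scramble groups differed in most members. In the scramble for shRNA2, 24 of 38 members (63.2%) were higher than in the scramble for shRNA1 and 2 were lower, against 16.8% and 13.1% of all genes, with a member median of 0.38 against 0.02 for all genes. The largest differences were in HNRNPA1 (0.90), SRSF3 (0.89), HNRNPA2B1 (0.86) and HNRNPAB (0.74), and the 2 lower members were SRSF5 (-0.32) and CLK1 (-0.41). Of these 26 calls, those of PTBP3 and SRSF8 were lost in 5 of 8 fits that left out 1 library, those of CLK1, SRSF5 and HNRNPH3 in 2, and those of TRA2A and HNRNPK in 1. The 20 proliferation genes were higher in the same group. The labels do not say how the 2 control groups were handled, so culture, transduction and library preparation cannot be told apart here.

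Set against the other scramble group, shRNA1 in H929 gave 27 lower members and 4 higher, against 32.4% and 31.3% of all genes, and the same 22 members as before were among the lower. For shRNA2 the count turned: 4 members were lower and 9 higher, against 21.9% and 17.6% of all genes, and the member median was 0.08. The 4 that were lower against either group were SRSF2 (-0.26), SRSF8 (-0.47), SRSF9 (-1.35) and HNRNPUL1 (-1.09). HNRNPH2 (0.72) was higher against either group. Of the other 8 that were higher, TRA2A (0.67) and SRSF10 (0.34) had not passed against their own scramble group, and SRSF1 (0.26), TRA2B (0.30), HNRNPA1 (0.26), HNRNPA2B1 (0.30), HNRNPA3 (0.29) and HNRNPD (0.33) had fallen. Against the mean of both scramble groups, shRNA1 gave 26 lower and 5 higher (32.5% and 30.9% of all genes) and shRNA2 17 lower and 2 higher (25.1% and 19.3%).

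**Figure D4:**
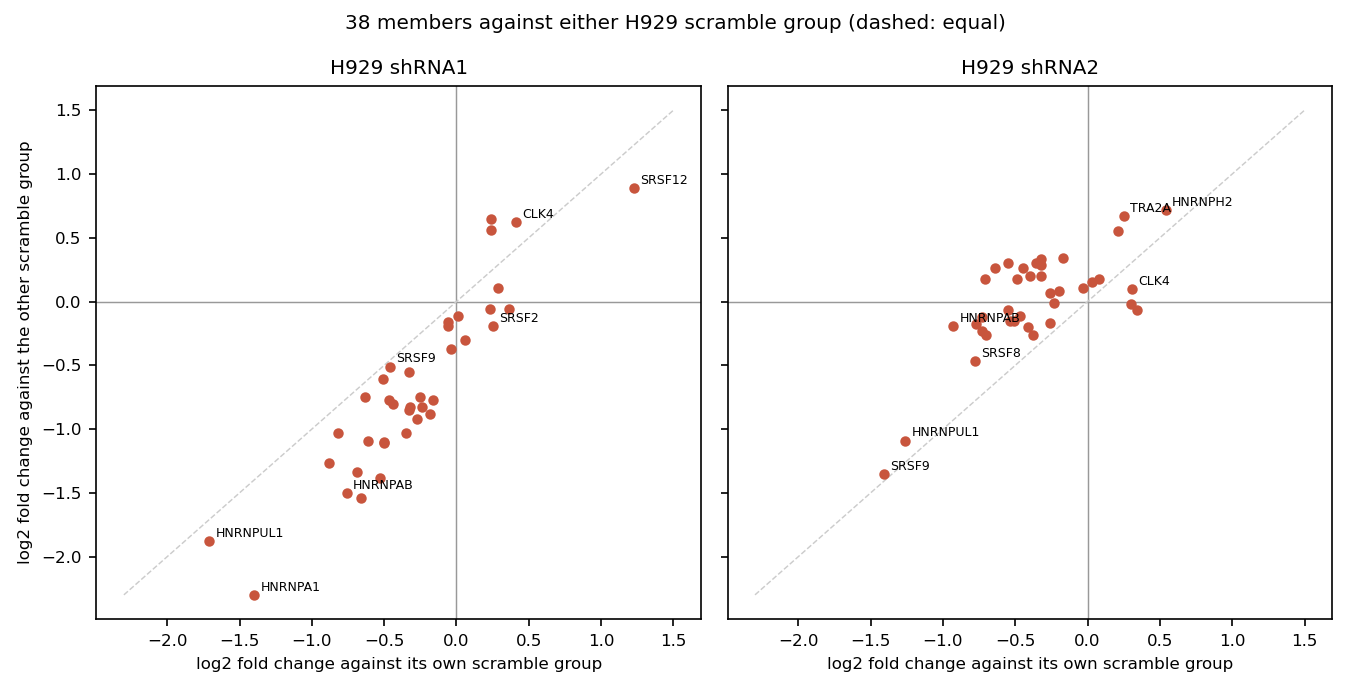
Log2 fold change of the 38 members in H929 against the hairpin's own scramble group (horizontal) and against the other scramble group (vertical), shRNA1 left and shRNA2 right, 1 point per member, with the line of equal values dashed. With shRNA1 most points stay below 0 on both axes, whereas with shRNA2 the median moves from -0.39 to 0.08, and HNRNPUL1 and SRSF9 stay near the line.

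The hairpins also differed from each other within a line. In MM1.S, 9 members were higher with shRNA2 than with shRNA1 and 4 lower, against 16.4% and 20.4% of all genes: HNRNPH2 (0.83 ± 0.14, edgeR adjusted p = 0.00335), HNRNPA0 (0.74), HNRNPC (0.65), HNRNPD (0.59), HNRNPUL2 (0.43), HNRNPR (0.40), SRSF3 (0.38), HNRNPF (0.36) and HNRNPU (0.36) were higher, and SRSF9 (-0.75), SRSF8 (-0.66), CLK1 (-0.65) and HNRNPH1 (-0.35) lower. Of these 13 calls, HNRNPH2 and HNRNPC held in every fit that left out 1 library. The higher and the lower count both dropped without any 1 of the hairpin libraries, and fewer of all genes passed in those fits too. With the replicate block 21 were higher and 5 lower (edgeR adjusted p under 0.05), against 28.7% and 29.6% of all genes in that fit, the added ones between 0.17 and 0.48 apart from CLK4 at -0.42. In H929 the difference of the hairpin effects, each against its own scramble group, was higher for 5 members and lower for 6, against 20% and 21.9% of all genes, shares near the members' 13.2% and 15.8%. HNRNPA1 (0.76 ± 0.12, limma adjusted p = 9.6e-05) and HNRNPUL1 (0.45) fell less with shRNA2, and HNRNPA0 (0.34), HNRNPC (0.41) and TRA2B (0.32) too. SRSF2 and SRSF9 (-0.95 each), HNRNPH1 (-0.53), HNRNPR (-0.52), HNRNPH3 (-0.48) and PTBP3 (-0.43) had the more negative value with shRNA2. These H929 differences carry both scramble groups, which differed from each other in most members. For HNRNPR and HNRNPH3 the shRNA1 and shRNA2 libraries overlapped in CPM, while both genes were higher in the scramble for shRNA2. For the other members named, the libraries of the 2 H929 hairpins were apart in CPM. The calls of TRA2B, HNRNPH3, HNRNPA0, PTBP3 and HNRNPC were lost in 6, 5, 4, 3 and 1 of the 8 fits that left out 1 library, and the higher count dropped to 2 without replicate 1 of shRNA2. HNRNPA0 and HNRNPC were higher, and SRSF9 and HNRNPH1 lower, with shRNA2 than with shRNA1 in both lines.

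The effect of shRNA1 differed between the lines for 11 members, 8 more negative in MM1.S and 3 less, against 11% and 10.4% of all genes. More negative in MM1.S were SRSF2 (-1.01 ± 0.18, limma adjusted p = 0.00153), SRSF1 (-0.90), HNRNPR (-0.87), HNRNPD (-0.77), HNRNPH2 (-0.56), HNRNPA3 (-0.51), HNRNPUL2 (-0.51) and SRSF3 (-0.47), and less negative or more positive were CLK1 (0.97), HNRNPA1 (0.68) and SRSF8 (0.68). The number of more negative members dropped without replicate 1 of the MM1.S scramble and without replicate 2 of MM1.S shRNA1. It also dropped without any 1 library of H929 shRNA1 or of its scramble group. Fewer of all genes were more negative in each of these fits too. CLK1 lost its call without replicate 1 of either shRNA1 group and without replicate 2 of the H929 scramble for shRNA1. SRSF1, SRSF2, SRSF8, HNRNPA1, HNRNPD and HNRNPR kept theirs in each such fit. With the replicate number within each line as a block, 15 were more negative in MM1.S and 6 less, against 16.4% and 15% of all genes. For shRNA2 no member differed between the lines by limma without the block, against 5.41% and 4.34% of all genes: at an unadjusted p under 0.05, 3 members were higher and 0 lower, the smallest limma adjusted p was 0.135, and edgeR also called none (5 lower and 0 higher unadjusted). With the block SRSF1 (-0.32) was more negative in MM1.S, and HNRNPU (0.31), SF3B1 (0.40) and CLK4 (0.35) were less negative or more positive, against 9.44% and 9.46% of all genes. These differences carry the H929 scramble groups, whose members differed from each other, and were not tested with the other scramble group as control. Fits that left out 1 library keep that choice of control. Against the other group the H929 shRNA1 values of SRSF3 and HNRNPA3 were -1.54 and -0.77, more negative than in MM1.S (-1.13 and -0.68). SRSF1 was then at -0.88, close to its -1.08 in MM1.S. The other members named for shRNA1 kept the direction of their difference.

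Other splicing genes were counted by the same rule, beside all-gene shares of 19.7%, 21.7%, 27.7% and 25% lower and 17.8%, 14.9%, 25.7% and 18% higher. In H929 the counts and values of these lists are against each hairpin's own scramble group and were not taken against the other. Of 25 U1, U2 and Sm core genes, 19 and 12 fell in MM1.S and 21 and 17 in H929 (shRNA1 and shRNA2), with 0, 2, 3 and 2 that rose. SNRPF (-2.06, -0.93, -1.54 and -0.65) and SNRPD2 (-1.16, -1.11, -1.27 and -0.84), both Sm ring proteins, fell in all 4, while DDX39B, a helicase of early assembly, rose in 3 (0.42, 0.34 and 0.52, with -0.11 for MM1.S shRNA1). Of 37 U4, U5, U6 and catalytic genes, 25 and 12 fell in MM1.S and 25 and 13 in H929, with 0, 3, 0 and 3 that rose, and LSM3 (-1.78, -1.62, -1.35 and -0.88) and PPIH (-1.55, -1.01, -1.04 and -0.65) fell in all 4. In the scramble for shRNA2 of H929, 19 of the 25 and 21 of the 37 were higher than in the scramble for shRNA1, against 16.8% of all genes.

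Among 9 kinases and transport factors of SR proteins, SRPK1, the cytoplasmic SR kinase (-0.67, -0.46, -1.12 and -0.87), and TNPO3, which imports SR proteins (-1.07, -0.88, -1.05 and -0.97), fell in all 4, whereas DYRK1A, a nuclear kinase, rose in all 4 (0.84, 0.66, 1.00 and 0.55). The list as a whole had 3, 2, 3 and 3 lower and 1, 2, 3 and 4 higher. All list counts of this paragraph stand beside the all-gene shares of 19.7%, 21.7%, 27.7% and 25% lower and 17.8%, 14.9%, 25.7% and 18% higher. No list was tested against all genes. Of 22 other SR- and hnRNP-related genes tested, 7, 3, 8 and 6 fell and 2, 3, 2 and 3 rose, with RALY, a relative of HNRNPC, lower in all 4 (-0.75, -0.88, -1.08 and -0.89), as was SYNCRIP (-0.87, -0.68, -0.30 and -0.79), and LUC7L, a U1 factor, higher in 3 (0.60, 0.64 and 0.38, with 0.02 for H929 shRNA1). Of 24 other splicing regulators, 6, 5, 7 and 8 fell and 3, 3, 9 and 5 rose, with KHDRBS1 lower in all 4 (-0.87, -0.49, -0.55 and -0.24) and RBM5 (0.38, 0.86 and 0.57, with 0.17 for H929 shRNA1) and SON (0.42, 0.21 and 0.23, with 0.05 for MM1.S shRNA1) higher in 3. Of 16 genes of nonsense-mediated decay, which degrades transcripts with early stop codons, 7, 3, 5 and 6 fell and 0, 2, 2 and 2 rose.

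In the authors' deposited tables of the 4 comparisons, which rest on the same libraries, each of the 38 members had the same sign as here. At the same threshold the authors' deposited tables held 27 lower and 4 higher members in MM1.S with shRNA1, 26 and 6 with shRNA2, and in H929 21 and 3 with shRNA1 and 25 and 3 with shRNA2. The share of all genes that passed in those tables was not counted, so these counts have no background. Strandedness is not stated: 25 members overlap another annotated gene, 17 of them a gene on the opposite strand. Processed copies of 16 members, 123 rows in all, are listed in the tables.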

How the data were processed

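The submitters' processing notes name STAR 2.5.3a, DESeq2 1.24.0 and GRCh38; the counter and its strand setting are not given in the sources used here. For MM1.S the deposited values are raw counts of reads for each Ensembl gene. The H929 table is called raw counts but holds a normalized signal: the authors' deposited values are read counts divided by 1 size factor per library, and 100% of them came out as whole reads, within 0.01 of a whole number, once multiplied back. The authors' tables of comparisons hold log2 fold changes and p-values, per the file headers; they were copied, not tested. Repeated identifiers (18 in either table) were left out, which left 58051 genes. Columns were matched to samples by line, hairpin and replicate in their names; the hairpin columns numbered otherwise were taken as shRNA2, and 1 H929 scramble column without a full name as replicate 2 of the scramble for shRNA1, by elimination.

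CPM were computed per library from counts or recovered reads, and divided by the GENCODE 29 exon length in kb, merged over all transcripts, to compare genes. MM1.S was tested with edgeR 4.0.16 (quasi-likelihood test, TMM, its own filter on low counts) in R 4.3.3, with the 6 libraries in 1 fit. H929 was tested with limma 3.58.1 (trend) on log2(value + 1), for genes that reached a value of 10 in 2 or more libraries, with the 8 libraries in 1 fit; a fold change on that scale understates the change of low genes. Differences between the lines were tested as differences of contrasts in 1 limma fit over the 14 libraries, for which the MM1.S counts were scaled by median-of-ratios size factors. Adjusted p-values are Benjamini-Hochberg over all genes tested (17820 in MM1.S, 18213 in H929, 20370 over both), with a threshold of 0.05. On recovered reads edgeR called 4955 genes higher and 4980 lower with shRNA1 in H929, and 3739 and 4283 with shRNA2. Depth limits low members: SRSF12 had few reads.

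The members and lists were chosen with earlier results of these data known. Values in every library are given for members that fell or rose with both hairpins in both lines, had opposite calls, differed between hairpins or lines, or had the largest changes, kept to the 20 with the largest range. In MM1.S, deviations of same-numbered libraries from their group means correlated at 0.499, 0.571 and 0.769 over 11200 genes. The replicate numbers of the labels were therefore taken to pair the libraries in the fits with a replicate block, while the main fits had no block and ignore this pairing. Alternatives were another scaling, DESeq2 1.42.0 (MM1.S), edgeR on recovered reads and pseudocounts of 0.5 and 5 (H929), no filter, a replicate block, each library left out, and, added after seeing the data, the other H929 scramble group or both.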

Additional observations from a re-analysis of the deposited data

Results flagged for a closer look

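The effect of shRNA1 (log2 fold change against scramble) differed between MM1.S and H929 for 11 members by limma's test of the difference (adjusted p under 0.05). By that test 11% of all genes were more negative in MM1.S and 10.4% were less negative or more positive. Given as MM1.S minus H929, the difference was -1.01 for SRSF2, -0.90 for SRSF1, -0.87 for HNRNPR, -0.77 for HNRNPD, -0.56 for HNRNPH2, -0.51 for HNRNPA3, -0.51 for HNRNPUL2 and -0.47 for SRSF3. It was 0.97 for CLK1, 0.68 for HNRNPA1 and 0.68 for SRSF8. SRSF2, HNRNPH2 and SRSF8 had fold changes of opposite sign in the 2 lines. HNRNPH2 and SRSF8 did not pass with shRNA1 in MM1.S without the replicate block. The rise of SRSF2 in H929 was lost in most fits that left out 1 library. The H929 effects are those against the scramble for shRNA1, and the line difference was not tested with the other scramble group. Against that group SRSF2 was at -0.19 with shRNA1 in H929, the sign it had in MM1.S. The others were at -0.88 (SRSF1), -0.83 (HNRNPR), -0.92 (HNRNPD), 0.11 (HNRNPH2) and -0.77 (HNRNPA3). HNRNPUL2 was at -0.75, SRSF3 at -1.54, CLK1 at 0.65, HNRNPA1 at -2.3 and SRSF8 at -0.77. SRSF3 and HNRNPA3 were thus more negative there than in MM1.S (-1.13 and -0.68), the reverse of their tested difference.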

How the results depend on the processing

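Over 9 comparisons and all alternatives, 4508 of 4902 values of single members kept their direction and their side of the threshold, 244 kept the direction but no longer passed, 132 newly passed and 18 reversed. All 18 came from another H929 scramble group, alternatives chosen after seeing the data. For shRNA1 against the other group these were SRSF2 (-0.19), TRA2A (-0.06) and HNRNPH1 (-0.30). For shRNA2 against the other group they were SRSF1 (0.26), SRSF3 (0.18), SRSF5 (-0.02), SRSF10 (0.34), TRA2B (0.30), HNRNPA1 (0.26), HNRNPA2B1 (0.30), HNRNPA3 (0.29), HNRNPD (0.33), HNRNPK (0.07), HNRNPM (0.20), HNRNPU (0.18), U2AF2 (0.20) and CLK1 (-0.07), and against both groups HNRNPD (0.01). The count for shRNA2 in H929 was then 9 higher and 4 lower against the other group, and 2 higher and 17 lower against both. The cause was not tested.

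Without a filter on low values more genes were tested, and the higher members numbered 4 for MM1.S shRNA2, 3 for H929 shRNA1 and 2 for H929 shRNA2, the lower ones 1 for the H929 scramble groups and 5 for the line difference of shRNA1. DESeq2 gave 4 higher for MM1.S shRNA2. Median-of-ratios scaling and limma each gave 2 lower for MM1.S shRNA2 against shRNA1. Of all genes without the filter, 3309 of 37067 were higher for MM1.S shRNA2, and 4396 and 2508 of 39615 for H929 shRNA1 and shRNA2. Lower there were 1569 of 39615 for the scramble groups and 1869 of 43045 for the line difference. DESeq2 called 2464 of 17820 genes higher for MM1.S shRNA2. For shRNA2 against shRNA1, 3553 of 17820 were lower with median-of-ratios scaling and 3511 of 17787 by limma. With the replicate block the higher members were 6 for each MM1.S hairpin and 21 for shRNA2 against shRNA1, the line difference of shRNA1 had 6 higher and 15 lower, and that of shRNA2 had 3 and 1. In H929 same-numbered libraries correlated at -0.167 to 0.204 over 10944 genes, so the numbers were not taken to pair them, and there the block added HNRNPH3 with shRNA1 (-0.25, limma adjusted p = 0.0497) and moved no count by more than 1. The block took no MM1.S call of a hairpin away.

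Leaving out 1 library at a time gave ranges of 2 to 2 higher and 19 to 24 lower for MM1.S shRNA1, 0 to 4 and 10 to 21 for MM1.S shRNA2, and 2 to 11 and 0 to 4 for shRNA2 against shRNA1. In H929 the ranges were 3 to 6 and 20 to 23 for shRNA1, 1 to 5 and 20 to 27 for shRNA2, 2 to 5 and 4 to 7 for the difference of the hairpin effects, and 21 to 26 and 0 to 2 for the scramble groups. The line differences ranged from 2 to 5 and 4 to 10 for shRNA1 and from 0 to 1 in each direction for shRNA2. The 1 library left in a group was then assumed to vary like the other groups. In the comparisons within a line, fewer of all genes passed too when a group compared was left with 1 library. These counts alone therefore do not show a change in the members. The member median ranged from -0.80 to -0.55 for MM1.S shRNA1 and from -0.50 to -0.37 for MM1.S shRNA2. In H929 it ranged from -0.35 to -0.31 for shRNA1 and from -0.42 to -0.37 for shRNA2.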
